A study of Rattus norvegicus with 24 samples.

Results

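The enzymes that carry glucose carbon through glycolysis, pyruvate oxidation and the citrate cycle were examined in rat hippocampus, by taking every array probe whose annotated gene symbol was one of 35 listed enzyme genes. Of the 35 genes, 28 had a named probe, 28 were tested, and all 28 were detected on all 24 arrays, out of 7983 named genes tested. The array table names 12978 genes in all. Hk1, Tpi1, Gapdh, Pgam1, Aco1, Suclg2 and Fh had no named probe in the table and were not analysed here. Idh2 had 2 named probes, of which 1 was detected on 0 arrays and was left out.

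The rats belonged to the dwarf strain HsdOla:DWARF-dw-4, in which dw/dw animals are deficient in growth hormone (GH) and heterozygous (HZ) animals of the same strain served as controls, so that every animal carried at least 1 dw allele. At postnatal day 35 injections under the skin began, and whole hippocampus was taken after 7 or 30 days, at an age of 42 or 65 days. The groups were dw/dw rats given 300 µg GH, dw/dw rats given saline, and HZ rats given saline, with 4 animals per group and time point, 6 groups in all. The deficiency is inborn and so precedes the injections, and GH-treated HZ rats were not among the samples used here. All arrays of a time point lay on the same slide, so age and slide cannot be told apart. On both slides each group filled 1 block of neighbouring positions, so group and position block cannot be told apart either. Between 44.9% and 51.2% of probes were detected on an array, arrays of the same group correlated at 0.994 to 0.998, and all 10 neuronal marker genes that were tested were detected on every array. In whole tissue, fewer cells of a type and less RNA per cell cannot be told apart.

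Glycolysis splits glucose into pyruvate in the cytosol and is paced by hexokinase, phosphofructokinase and pyruvate kinase. Lactate dehydrogenase interconverts pyruvate and lactate, and the pyruvate dehydrogenase complex commits pyruvate to the mitochondrion as acetyl-CoA, which citrate synthase feeds into the citrate cycle. In the brain, astrocytes are known for strong glycolysis and lactate release and neurons for strong oxidative use of pyruvate. Several steps are shared between isozymes: Ldha favours lactate production and Ldhb its use, Aldoc and Eno2 are the brain aldolase and the neuronal enolase, and Pfkl, Pfkm and Pfkp are the liver, muscle and platelet phosphofructokinases.

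The windows before the starts of 3 genes on which the results below turn are shown, both lactate dehydrogenase genes and Pdhb, the beta subunit of pyruvate dehydrogenase. Each is the 250 bases before the RefSeq gene start in assembly GRCr8, read 5′ to 3′ on the gene's strand. Capitals mark ACGTG on either strand (CACGT on the strand shown), with overlapping matches merged, so that CACGTG is a match on both strands. These letters are the core of the site bound by hypoxia-inducible factor and are contained in the E-box CACGTG.
Ldha, chr1:106507842-106508091, plus strand: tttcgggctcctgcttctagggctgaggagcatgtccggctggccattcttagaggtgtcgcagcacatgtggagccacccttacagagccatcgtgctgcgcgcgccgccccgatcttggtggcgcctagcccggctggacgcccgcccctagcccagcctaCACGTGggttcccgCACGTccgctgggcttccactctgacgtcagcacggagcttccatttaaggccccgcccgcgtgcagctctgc
Ldhb, chr4:177177409-177177658, minus strand: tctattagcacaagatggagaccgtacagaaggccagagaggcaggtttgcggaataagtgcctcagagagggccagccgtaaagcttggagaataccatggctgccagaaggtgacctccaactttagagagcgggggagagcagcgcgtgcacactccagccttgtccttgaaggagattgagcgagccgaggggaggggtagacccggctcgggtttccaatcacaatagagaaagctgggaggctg
Pdhb, chr15:19182539-19182788, plus strand: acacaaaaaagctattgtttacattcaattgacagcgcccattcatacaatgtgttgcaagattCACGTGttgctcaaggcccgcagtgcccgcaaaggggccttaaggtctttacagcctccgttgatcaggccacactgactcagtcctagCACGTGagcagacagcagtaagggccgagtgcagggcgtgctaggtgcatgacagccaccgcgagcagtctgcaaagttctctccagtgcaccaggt
The Ldha and Pdhb windows each held 2 marked stretches and the Ldhb window held 0. Over all listed genes with a window, 12 of 37 windows (32.4%) held the motif, and of the 33469 windows of all genes 16.6% held it. The 37 windows belong to 33 of the 35 listed genes, some with several windows, so they do not describe the tested members alone. Windows with the motif include those of Hk1, Gapdh and Pgam1, which had no named probe. A match is a description of the letters in the window, the motif was chosen with results of these data known, and none of the comparisons below tests a factor.

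Signals were background-corrected, quantile normalized and put on a log2 scale, and a difference is given with its standard error (SE) from a limma fit to all 24 arrays, with Benjamini-Hochberg adjusted p-values, taken over all 11487 probes tested. Levels of different probes are not comparable, because each probe has its own brightness. Among the phosphofructokinases, the group means of Pfkl lay between 7.69 ± 0.15 (dw/dw saline, 30 days) and 7.40 ± 0.15 (HZ, 7 days), SD over 4 animals here and below. Pfkm lay between 10.57 ± 0.08 (dw/dw GH, 30 days) and 10.48 ± 0.11 (HZ, 7 days). Pfkp lay between 10.92 ± 0.07 (dw/dw GH, 7 days) and 11.04 ± 0.10 (dw/dw saline, 30 days). The groups with the lowest and the highest mean were not the same for all 3 isozymes. Pkm, the pyruvate kinase that makes pyruvate and ATP at the end of glycolysis, lay between 9.47 ± 0.10 (dw/dw saline, 30 days) and 9.23 ± 0.17 (HZ, 7 days). Pdha1, the regulated alpha subunit of pyruvate dehydrogenase, lay between 10.44 ± 0.08 (dw/dw saline, 30 days) and 10.50 ± 0.15 (HZ, 30 days). Cs, citrate synthase, lay between 6.95 ± 0.08 (dw/dw GH, 7 days) and 6.74 ± 0.04 (HZ, 30 days). Idh3a and Ogdh set the pace of the oxidative steps of the cycle as the catalytic subunit of NAD-dependent isocitrate dehydrogenase and the first subunit of 2-oxoglutarate dehydrogenase. Idh3a lay between 6.20 ± 0.03 (dw/dw GH, 7 days) and 6.16 ± 0.02 (HZ, 30 days), the narrowest spread of any member, although the offset narrows the differences of dim probes such as this one. Ogdh lay between 10.38 ± 0.07 (dw/dw saline, 7 days) and 10.57 ± 0.11 (HZ, 30 days).

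The other members varied over similarly narrow ranges of group means. In upper glycolysis, Gpi, which turns glucose-6-phosphate into fructose-6-phosphate, lay between 12.28 (dw/dw saline, 30 days) and 12.19 (HZ, 30 days), and the aldolases, which split the hexose, between 11.34 and 11.45 for Aldoa and 12.20 and 12.29 for Aldoc. In lower glycolysis, Pgk1 lay between 11.61 and 11.70, and the enolases, which make phosphoenolpyruvate, between 6.42 and 6.52 for Eno1 and 11.76 and 11.86 for Eno2. Ldha lay between 10.74 (dw/dw saline, 7 days) and 10.63 (HZ, 30 days) and Ldhb between 11.22 (dw/dw saline, 7 days) and 11.38 (HZ, 30 days), the same groups at the ends in opposite order.

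In the mitochondrial complexes, Dlat had the narrower range, 8.10 to 8.15, while Dld spanned 8.87 to 9.05 and Pdhb 10.36 to 10.57, both from dw/dw saline at 30 days as the lowest group. Sucla2 lay between 10.24 (dw/dw GH, 30 days) and 10.39 (HZ, 30 days), and Suclg1 between 10.62 (HZ, 30 days) and 10.48 (HZ, 7 days). The NADP-dependent isocitrate dehydrogenases were both lowest in dw/dw saline at 30 days, with 8.45 to 8.74 for Idh1 and 7.21 to 7.45 for Idh2. The malate dehydrogenases, Mdh1 of the cytosol and Mdh2 of the mitochondrion, which together run the malate-aspartate shuttle of reducing equivalents, were both lowest in dw/dw saline at 7 days and highest in HZ at 30 days, with 12.04 to 12.18 for Mdh1 and 11.19 to 11.26 for Mdh2.

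No enzyme gene passed the test between genotypes or with GH at either time point. After 7 days, 0 of 28 members were called between dw/dw saline and HZ rats, as were 0% of all probes, and 2 members (7.14%) had an unadjusted p under 0.05 against 6.6% of all probes. The members' differences were positive for 15 and negative for 13, with a median of 0.0029 on the log2 scale and 0.0018 over all probes, and every member's 95% confidence interval lay within 1.23-fold in either direction. After 30 days 0 of 28 members and 0% of probes were called, 3 members (10.7%) against 7.14% of all probes had an unadjusted p under 0.05, and 13 differences were positive and 15 negative, with a median of -0.0097 against 0.0021 over all probes. For 24 of the 28 the interval lay within 1.23-fold, and the widest reached 0.39 on the log2 scale, for Pdhb.

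**Figure D1:**
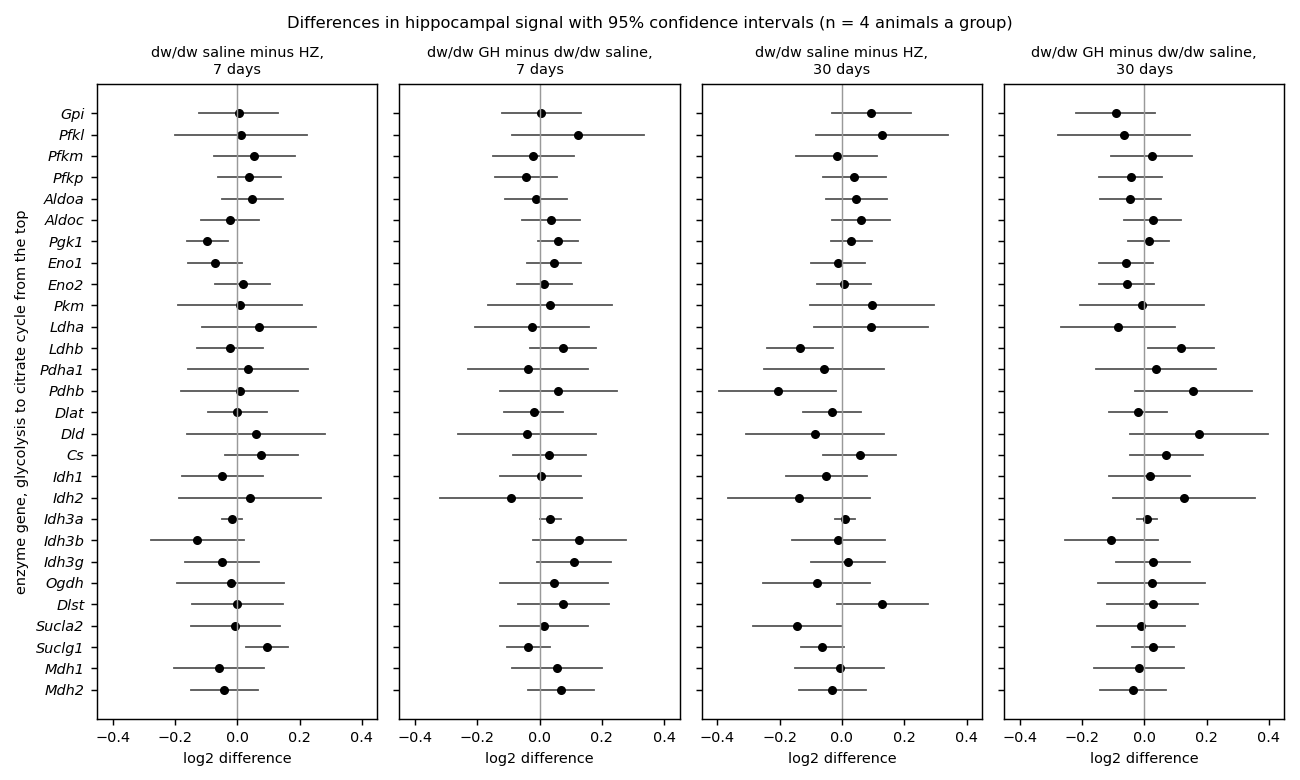
Log2 differences of the 28 tested enzyme genes (points) with 95% confidence intervals (lines), in 4 panels for dw/dw saline minus HZ and dw/dw GH minus dw/dw saline after 7 and 30 days. The members run from glycolysis at the top to the citrate cycle at the bottom, 0 of 28 pass the adjusted test in any panel, and the Pdhb interval at 30 days in dw/dw saline minus HZ has the farthest end, at -0.39, in that panel.

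The smallest p-value of the 7-day genotype comparison among the members belonged to Pgk1, the phosphoglycerate kinase that makes the first ATP of lower glycolysis. Its log2 signal was 11.56, 11.60, 11.61 and 11.66 in dw/dw saline rats, against 11.73, 11.79, 11.66 and 11.64 in HZ rats. The lowest HZ animals overlapped with the highest dw/dw saline animal, and the difference was -0.10 (SE 0.031, limma adjusted p = 0.57). Suclg1, the alpha subunit shared by both succinyl-CoA ligases of the citrate cycle, read 10.54, 10.57, 10.55 and 10.64 in dw/dw saline rats, against 10.45, 10.48, 10.51 and 10.48 in HZ rats. All dw/dw saline animals lay above all HZ animals, by 0.10 on average (SE 0.033, limma adjusted p = 0.58). Idh3b, a structural subunit of NAD-dependent isocitrate dehydrogenase, read 9.46, 9.43, 9.51 and 9.55 in dw/dw saline rats, against 9.67, 9.68, 9.55 and 9.57 in HZ rats. Here all dw/dw saline animals lay below all HZ animals, the nearest of them equal at 2 decimals, with a difference of -0.13 (SE 0.071, limma adjusted p = 0.81). Groups without overlap were seen for 2 of 28 members and for 2.81% of all probes in this comparison.

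Lactate dehydrogenase B and pyruvate dehydrogenase beta had the smallest p-values of the 30-day genotype comparison among the members, and neither passed. Ldhb read 11.22, 11.23, 11.26 and 11.28 in dw/dw saline rats, against 11.32, 11.37, 11.42 and 11.41 in HZ rats. Every dw/dw saline value was below every HZ value, and the difference was -0.13 (SE 0.051, limma adjusted p = 0.63). Pdhb read 10.44, 10.30, 10.30 and 10.39 in dw/dw saline rats, against 10.66, 10.46, 10.64 and 10.51 in HZ rats. These groups also lay apart, by -0.21 on average (SE 0.090, limma adjusted p = 0.67), and such separation held for 2 of 28 members and 4.34% of all probes. Sucla2, the ATP-forming beta subunit of succinyl-CoA ligase, read 10.37, 10.20, 10.19 and 10.23 in dw/dw saline rats, against 10.47, 10.35, 10.40 and 10.35 in HZ rats. A single dw/dw saline animal reached into the HZ range, and the difference was -0.14 (SE 0.068, limma adjusted p = 0.69). With the share of probes detected on each array as a covariate, the differences were -0.12 for Ldhb, -0.11 for Pdhb and -0.08 for Sucla2.

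GH treatment of dw/dw rats likewise called 0 of 28 members and 0% of probes after 7 days. An unadjusted p under 0.05 was reached by 1 member (3.57%) and by 4.65% of all probes, and 19 differences were positive and 9 negative, with a median of 0.032 against -0.00051 over all probes. Without dw/dw GH replicate 1 the members' median was 0.010. After 30 days the counts were again 0 of 28 and 0%, with 1 member (3.57%) against 3.36% of probes at the unadjusted threshold, 15 positive and 13 negative differences and a median of 0.012 against -0.00045. The comparisons of GH with saline and of dw/dw saline with HZ share the dw/dw saline arrays, so a low or high dw/dw saline group moves both, in opposite directions. Red blood cell markers had a median difference of 0.62 with GH at 7 days and 0.50 at 30 days. Meningeal and fibroblast markers were positive for 9 of 9 with GH at 7 days (median 0.20) and for 8 of 9 with GH at 30 days (median 0.08). In dw/dw saline against HZ rats they were positive for 0 of 9 at 7 days (median -0.27) but for 8 of 9 at 30 days (median 0.05). The part of either in the enzymes' values was not tested.

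Idh3a had the smallest p-value among the members for 7 days of GH. Its signal was 6.23, 6.20, 6.16 and 6.20 in GH-treated dw/dw rats, against 6.13, 6.17, 6.17 and 6.17 in saline-treated dw/dw rats. The groups overlapped, and the difference was 0.035 (SE 0.016, limma adjusted p = 1.00), and it was 0.33 in the authors' normalized values. Idh3g, the gamma subunit of the same enzyme, read 9.95, 9.98, 10.11 and 10.02 with GH, against 9.89, 9.86, 10.06 and 9.82 with saline, a difference of 0.11 (SE 0.057, limma adjusted p = 1.00) between overlapping groups. Pgk1 read 11.68, 11.70, 11.68 and 11.62 with GH, against the 4 saline values given above, a difference of 0.060 (SE 0.031, limma adjusted p = 1.00). A single GH-treated animal fell inside the saline range of Pgk1.

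After 30 days of GH the members with the smallest p-values were Ldhb, Pdhb and Dld, the dihydrolipoamide dehydrogenase subunit used by both the pyruvate and the 2-oxoglutarate dehydrogenase complexes. Ldhb read 11.42, 11.37, 11.28 and 11.40 with GH, against the saline values of 11.22 to 11.28, a difference of 0.12 (SE 0.051, limma adjusted p = 1.00) with overlap at 1 animal. Pdhb read 10.79, 10.40, 10.43 and 10.45 with GH, against 10.44, 10.30, 10.30 and 10.39 with saline. The first GH animal stood far above the other 3, the groups overlapped, and the difference of 0.16 (SE 0.090, limma adjusted p = 1.00) became 0.065 without that animal. Dld read 9.25, 9.09, 9.01 and 8.86 with GH, against 8.99, 8.85, 8.77 and 8.89 with saline. Its difference was 0.18 (SE 0.11, limma adjusted p = 1.00), and 0.11 without the same GH animal, whose array also had the highest share of detected probes (51.2%). The first saline animal was likewise the highest of its group in Pdhb (10.44) and Dld (8.99), and it stayed in both of these fits.

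**Figure D2:**
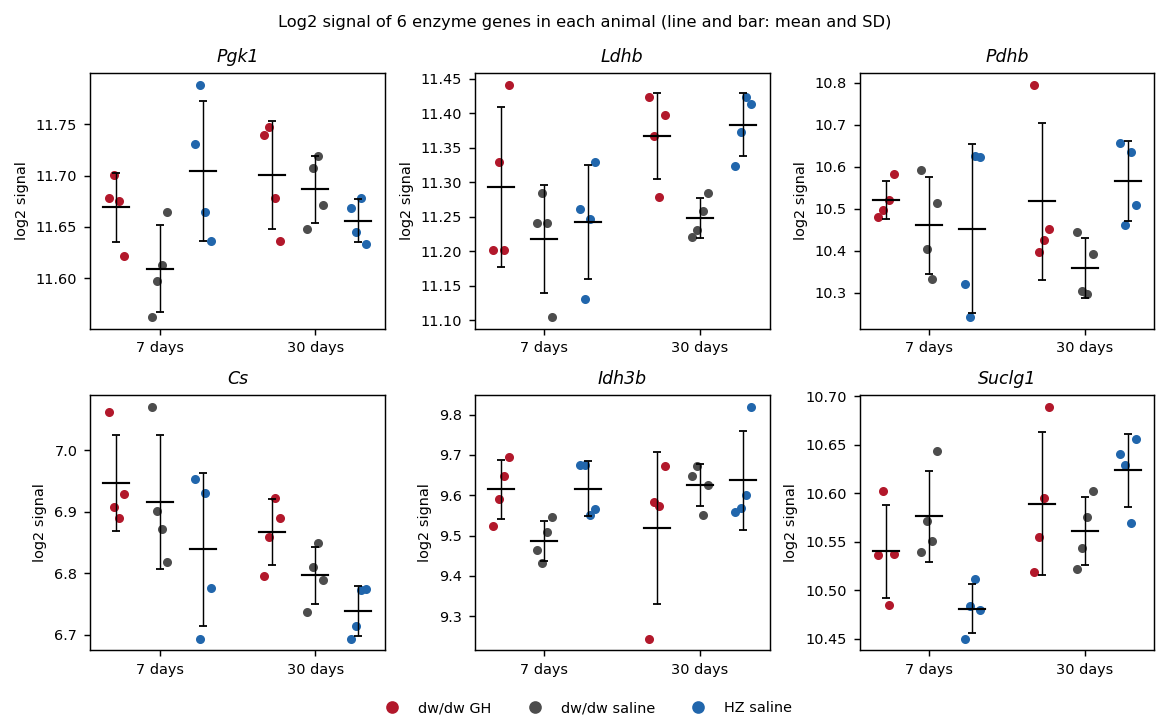
Log2 signal of Pgk1, Ldhb, Pdhb, Cs, Idh3b and Suclg1 in each of the 24 animals, by group within each time point, with dw/dw GH left of dw/dw saline and HZ; horizontal lines and bars are the mean and SD of 4 animals. The dw/dw saline values of Ldhb at 30 days, 11.22 to 11.28, all lie below the HZ values, and 1 dw/dw GH animal at 30 days stands apart in both Pdhb (10.79) and Idh3b (9.24).

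GH-treated dw/dw rats were also set against HZ rats, which asks how far treated animals lay from the controls. After 7 days 0 of 28 members and 0% of probes were called, and at an unadjusted p under 0.05 it was 0 members and 4.06% of probes, with 19 positive and 9 negative differences and a median of 0.023. The members with the smallest p-values were Cs (difference 0.11, SE 0.056), Suclg1 (0.059, SE 0.033) and Pfkl (0.14, SE 0.10), each with a limma adjusted p of 0.999. Leaving out 1 array brought Cs to 0.060 (HZ replicate 2), Suclg1 to 0.039 (dw/dw GH replicate 2) and Pfkl to 0.09 (HZ replicate 4). Cs read 7.06, 6.91, 6.89 and 6.93 with GH, against 6.95, 6.69, 6.93 and 6.78 in HZ rats, and the groups overlapped. Suclg1 read 10.54, 10.60, 10.49 and 10.54 with GH, so that 1 animal lay within the HZ range given above. Pfkl read 7.58, 7.52, 7.51 and 7.52 with GH, against 7.46, 7.29, 7.58 and 7.26 in HZ rats, where 1 HZ animal equalled the highest treated one at 2 decimals.

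After 30 days 0 of 28 members and 0% of probes were called between GH-treated dw/dw and HZ rats, 3 members (10.7%) against 5.48% of probes had an unadjusted p under 0.05, and 13 differences were positive and 15 negative. Cs read 6.80, 6.86, 6.92 and 6.89 with GH, against 6.69, 6.71, 6.77 and 6.77 in HZ rats. Every treated animal lay above every HZ animal, with a difference of 0.13 (SE 0.056, limma adjusted p = 0.89), and this was the 1 member of 28 without overlap, against 3.19% of all probes. Sucla2 read 10.35, 10.27, 10.19 and 10.14 with GH, against 10.47, 10.35, 10.40 and 10.35 in HZ rats, which overlapped at 1 treated animal and differed by -0.15 (SE 0.068, limma adjusted p = 0.89). Dlst, the succinyl-transferring subunit of the 2-oxoglutarate dehydrogenase complex, read 7.30, 7.59, 7.43 and 7.46 with GH, against 7.23, 7.33, 7.19 and 7.40 in HZ rats. These overlapped at 1 treated animal and differed by 0.16 (SE 0.070, limma adjusted p = 0.89).

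Averaging both time points narrowed the intervals and called no further enzyme. Over both ages 0 of 28 members and 0% of probes were called between dw/dw saline and HZ rats, and 1 member (3.57%) against 9.78% of probes had an unadjusted p under 0.05. That member was Ldhb, at -0.08 (SE 0.036, limma adjusted p = 0.47), followed by Cs at 0.07 (SE 0.040, adjusted p = 0.61) and Sucla2 at -0.08 (SE 0.048, adjusted p = 0.65). For GH against saline over both ages, 0 of 28 members and 0% of probes were called, 1 member (3.57%) against 2.92% of probes had an unadjusted p under 0.05, and 20 differences were positive and 8 negative, with a median of 0.015. Ldhb had the smallest p-value again, at 0.10 (SE 0.036, limma adjusted p = 1.00), then Idh3a at 0.022 (SE 0.011) and Idh3g at 0.07 (SE 0.040), both with an adjusted p of 1.00. In both averaged comparisons all 28 intervals lay within 1.23-fold.

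Whether the differences changed between the time points was tested as an interaction. For dw/dw saline against HZ, 0 of 28 members and 0% of probes were called, and 2 members (7.14%) against 4% of probes had an unadjusted p under 0.05. Suclg1 had a difference of 0.10 at 7 days and of -0.06 at 30 days, a difference between them of -0.16 (SE 0.046, limma unadjusted p = 0.0027, adjusted p = 0.995). The same quantity was 0.13 (SE 0.044) for Pgk1 and -0.21 (SE 0.13) for Pdhb, also with an adjusted p of 0.995. For the GH effect, 0 of 28 members and 0% of probes were called, and 1 member (3.57%) against 5.15% of probes reached the unadjusted threshold, Idh3b at -0.23 (SE 0.10, limma adjusted p = 0.95). Without the first dw/dw GH animal at 30 days, whose Idh3b signal of 9.24 lay below the other 3 (9.57 to 9.67), the Idh3b value was -0.14. Eno1, the widely expressed enolase, was at -0.11 (SE 0.059, adjusted p = 0.95) and Dld at 0.22 (SE 0.15, adjusted p = 0.98).

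The balance between isozymes was compared as the difference of their log2 signals in each animal, for 5 pairs in the 6 comparisons within a time point. None of the 30 exact permutation tests passed after adjustment over all 30, and 4 animals against 4 cannot give a two-sided p below 0.029. That smallest value was reached once, by Pfkl minus Pfkm after 7 days of GH, where the balance was 0.14 higher with GH than with saline (exact permutation p = 0.029, adjusted p = 0.64). Ldha minus Ldhb averaged -0.53 ± 0.17 in dw/dw saline and -0.76 ± 0.06 in HZ rats at 30 days (SD, n = 4 each), a difference of 0.23 towards Ldha in the dwarfs (exact permutation p = 0.057, adjusted p = 0.64). With the share of probes detected as a covariate, the Ldha difference in this comparison was 0.0013, against 0.09 without it. That of Ldhb was -0.12, against -0.13. The balance itself was not tested with the covariate. With GH at 30 days it averaged -0.73 ± 0.23, against -0.53 ± 0.17 with saline (exact permutation p = 0.26, adjusted p = 0.66). At 7 days the same balance was -0.58 ± 0.10 with GH, -0.48 ± 0.13 in dw/dw saline and -0.57 ± 0.21 in HZ rats, whose spreads overlap. Eno1 minus Eno2, the widely expressed against the neuronal enolase, differed by at most 0.09 in size in any comparison, and Aldoa minus Aldoc, the muscle-type against the brain aldolase, by at most 0.09. Eno1 is a dim probe (mean 6.47), whose differences the offset narrows. Under alternative processing the Eno1 minus Eno2 difference between dw/dw saline and HZ rats at 7 days ranged from -0.24 to -0.07.

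Some members were called between the 65-day and the 42-day arrays, in both directions, as were probes over the whole array. The counts are not read as particular to the members. Between 65 and 42 days 6 of 28 members (21.4%) were called, against 15.7% of all probes, 4 higher at 65 days against 7.83% of probes and 2 lower against 7.9%. An unadjusted p under 0.05 was reached by 11 members (39.3%) and 30% of probes, and 21 differences were positive and 7 negative, with a median of 0.034 against -0.0014 over all probes. Each age is 1 slide, so these counts cannot be told apart from a slide effect. Markers of oligodendrocytes and red blood cells moved with the same contrast: 0 of 7 oligodendrocyte markers had a positive difference and 5 were called lower at 65 days (median -0.29), and of 4 red blood cell markers 3 were called lower (median -1.25). Of 9 meningeal and fibroblast markers 0 were positive and 3 were called lower (median -0.10), of 7 microglial markers 2 were called lower (median 0.0043), and of 5 astrocyte markers 1 (median -0.07). Of 10 neuronal markers 1 was called higher and 1 lower, and of 2 endothelial markers 1 higher. The summed linear signals were 8176 to 9962 at 65 days and 9732 to 13850 at 42 days for oligodendrocytes, 4167 to 8580 and 10980 to 21370 for red blood cells, and 1788 to 4236 and 2471 to 7397 for meninges and fibroblasts. The red blood cell marker Alas2 was not detected. The part of these cells in the enzymes' differences was not tested.

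Idh1, the cytosolic NADP-dependent isocitrate dehydrogenase that supplies NADPH for lipid synthesis and antioxidant defence, was lower on the 65-day slide in all 3 kinds of animal, which share the split of ages over slides. It lay between 8.38 and 8.58 at 65 days (median 8.48), against 8.51 and 8.88 at 42 days (median 8.72), 12 animals at each age, with a small overlap of the ranges. The difference was -0.24 (SE 0.036, limma adjusted p = 0.00028), and it was -0.23 in dw/dw GH, -0.24 in dw/dw saline and -0.24 in HZ rats. Cs, the entry enzyme of the citrate cycle, was lower on that slide too. Its range was 6.69 to 6.92 at 65 days (median 6.79) and 6.69 to 7.07 at 42 days (median 6.91), with a difference of -0.10 (SE 0.032, limma adjusted p = 0.042) and values of -0.08, -0.12 and -0.10 in dw/dw GH, dw/dw saline and HZ rats.

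Dlst was higher on the 65-day slide, with 7.19 to 7.59 at 65 days (median 7.41) and 6.97 to 7.39 at 42 days (median 7.20), a difference of 0.20 (SE 0.040, limma adjusted p = 0.0022). Pkm was higher as well, with 9.19 to 9.64 at 65 days (median 9.49) and 8.98 to 9.45 at 42 days (median 9.25), by 0.19 (SE 0.055, limma adjusted p = 0.022). The ranges of both genes overlapped, and each was positive in dw/dw GH, dw/dw saline and HZ rats, with 0.21, 0.26 and 0.13 for Dlst and 0.19, 0.24 and 0.15 for Pkm. Pfkl lay at 7.27 to 7.91 at 65 days and 7.21 to 7.59 at 42 days, and was higher by 0.18 (SE 0.059, limma adjusted p = 0.043). Suclg1 lay at 10.52 to 10.69 and 10.45 to 10.64 at these ages and was higher by 0.06 (SE 0.019, limma adjusted p = 0.039). Suclg1 was not higher at 65 days in every kind of animal, with 0.05 in dw/dw GH, -0.015 in dw/dw saline and 0.14 in HZ rats, while Pfkl was, with 0.09, 0.28 and 0.16. Groups of 12 without overlap between the ages were seen for 0 of the 28 members and for 0.357% of all probes. Scaling each array to a common median in place of quantile normalization left 1 member called, Idh1, and 351 probes, against 1808 with quantile normalization. The differences that lost their call there were 0.21 for Dlst, 0.19 for Pkm, 0.19 for Pfkl, -0.10 for Cs and 0.017 for Suclg1. Of 34 settings, each array left out included, Idh1 was called in 34, Dlst and Pkm in 32, Cs in 18, Suclg1 in 15 and Pfkl in 14. The 15 for Suclg1 include the authors' normalized values, where it was called in the opposite direction, at -0.09 (limma adjusted p = 0.0056). In those values, in which each slide appears to have been normalized on its own, Idh1 and Cs stayed called and Dlst, Pkm and Pfkl were not. The median of all probes was at -0.14 and that of the members at -0.11 in those values, with 0 members called higher and 18 lower, and of all calls 4.9% were higher at 65 days, against 49.8% above.

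**Figure D3:**
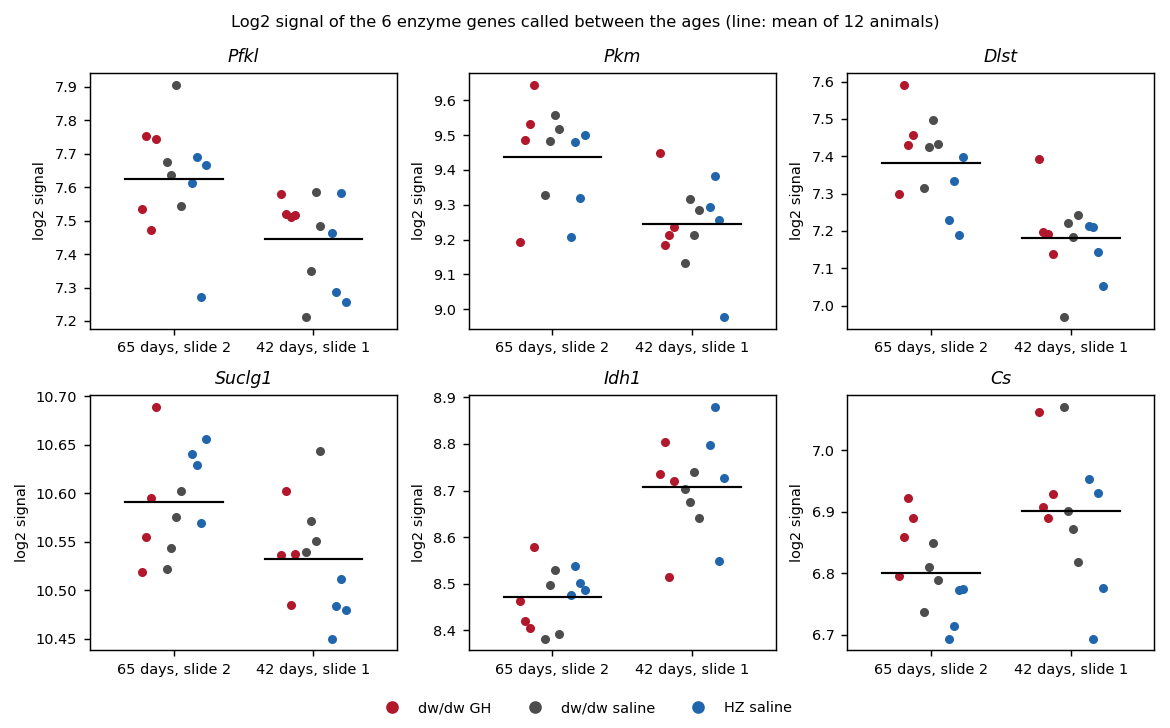
Log2 signal of the 6 enzyme genes called between the ages, 12 animals at 65 days (slide 2) left of 12 at 42 days (slide 1), coloured by group; horizontal lines are the means of 12 animals. Pfkl, Pkm, Dlst and Suclg1 have the higher mean at 65 days and Idh1 and Cs the lower, and the ranges of the ages overlap in all 6 panels.

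Animals of the same group varied in these genes in a shared pattern. The within-group SD had a median of 0.090 over the 28 members and 0.058 over all tested probes, and was largest for Idh2 (0.16), Dld (0.16), Pfkl (0.15), Pkm (0.14), Pdha1 (0.14) and Pdhb (0.13). The first dw/dw GH animal at 30 days was the highest of its group in Pdha1 (10.70), Pdhb (10.79), Dld (9.25), Idh2 (7.59), Ogdh (10.69) and Sucla2 (10.35), and the lowest in Ldha (10.35), Pkm (9.19) and Gpi (12.08). The first dw/dw saline and first HZ animals at 30 days were highest and lowest of their groups in these same genes. They read 10.52 and 10.69 in Pdha1 and 10.57 and 10.53 in Ldha. At 30 days the pattern was thus shared by replicate 1 of every group. At 7 days the first dw/dw GH animal had the lowest Pdhb (10.48) and the highest Pkm (9.45) of its group. The first dw/dw saline animal at 7 days did likewise, with the highest Pdha1 (10.71), Pdhb (10.59), Dld (9.12) and Sucla2 (10.37) and the lowest Ldha (10.59), Pkm (9.13), Gpi (12.09) and Dlst (6.97) of its group. The second HZ animal at 7 days was the reverse, with the lowest Pdha1 (10.26), Pdhb (10.24), Dld (8.53) and Idh2 (7.12) and the highest Ldha (10.85) and Pkm (9.38).

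The animals with this pattern or its reverse also differed in the share of probes detected on their arrays. The share was 51.2% for the first dw/dw GH animal at 30 days and 50.01% for the first dw/dw saline animal at 7 days. At 30 days it was 49.17% for the first dw/dw saline animal and 50% for the first HZ animal. Each of these was the highest of its group. The second HZ animal at 7 days had 45.26%, the lowest of its group. A slope on that share was therefore fitted in limma for every probe beside the 6 group means, a test chosen after the pattern had been seen in the same data. It was called for 13 of 28 members (46.4%), against 22.4% of all probes. All 28 members were called detected on every array, and what the slopes stand for was not tested. Upward slopes were called for 6 genes of mitochondrial enzymes: Pdha1 by 0.08 on the log2 scale per percentage point (SE 0.0099, limma adjusted p = 0.00019), Pdhb by 0.07 (SE 0.012, adjusted p = 0.00078), Idh2, the mitochondrial NADP-dependent isocitrate dehydrogenase, by 0.08 (SE 0.015, adjusted p = 0.0016), Sucla2 by 0.05 (adjusted p = 0.0030), Dld by 0.07 (adjusted p = 0.0056) and Ogdh by 0.05 (adjusted p = 0.0087). Downward slopes were called for 7 genes, of which all but Dlst are glycolytic or lactate-forming: Ldha at -0.06 (SE 0.012, limma adjusted p = 0.0017), Pkm at -0.06, Dlst at -0.04, Gpi, glucose-6-phosphate isomerase, at -0.04, Pfkm at -0.04, Pfkp at -0.03 and Aldoc at -0.03. Dlat, the acetyl-transferring subunit that completes the pyruvate dehydrogenase complex, was not called (-0.02, adjusted p = 0.10), so subunits of 1 complex did not all slope the same way. Over all 14 tested members of mitochondrial enzymes, 7 slopes were positive and 7 negative, and over the 14 cytosolic members 2 were positive, Ldhb and Eno2, and 12 negative, called or not. Of all 28 members 24 had the same sign in separate fits to both slides. The 13 called members were among them, but they had been called on the same arrays of both slides together, so their agreement is no separate test. In the separate fits 1 member passed on the 7-day slide, Pdha1, against 3.7% of all probes, and 8 on the 30-day slide, against 5.2%. Probes of like brightness were not set against the members, so the share of 46.4% is not read as particular to them. Leaving out any 1 array left 9 to 14 members called, and Ldha, Pdha1, Pdhb, Dld, Idh2, Ogdh and Sucla2 were called in all 24 such fits.

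**Figure D4:**
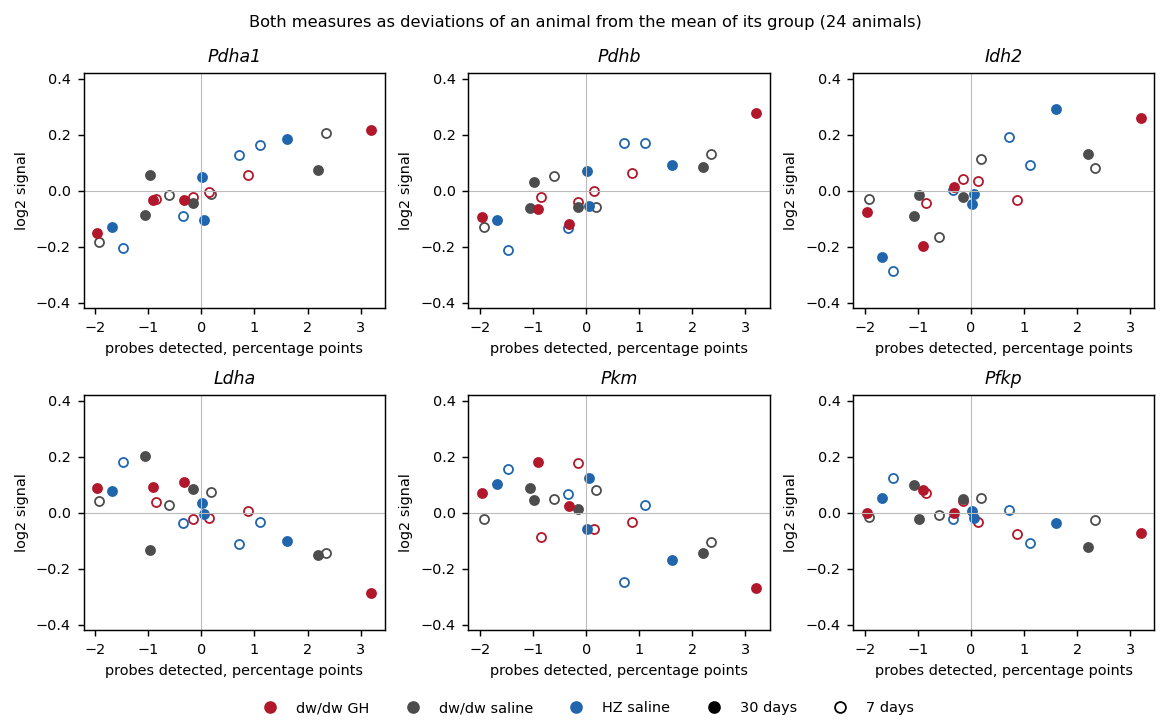
Deviation of each animal's log2 signal from its group mean (vertical axis) against the deviation of its share of detected probes from the group mean, in percentage points (horizontal axis), for 24 animals; filled points are 30 days and open points 7 days. Pdha1, Pdhb and Idh2 slope upward, by 0.07 to 0.08 per percentage point, and Ldha, Pkm and Pfkp downward.

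The group means of this share differed within a time point, but the ranges of the groups overlapped at both times and no test was made. The mean share was 45.8% in dw/dw GH, 47.7% in dw/dw saline and 46.7% in HZ rats at 7 days, and 48.0%, 47.0% and 48.4% in the same order at 30 days. With the share as a covariate 0 of 28 members were called in each of the 6 comparisons within a time point. The difference of Pdhb after 30 days of GH was 0.08 and that of Dld 0.10 in that fit, and the Ldha difference between dw/dw saline and HZ rats at 30 days was 0.0013, against 0.09 without the covariate. Other differences were larger with the covariate. After 7 days of GH, Pdhb was at 0.19 with it and 0.06 without, and Ldha at -0.15 and -0.02. The Ldha difference between dw/dw saline and HZ rats at 7 days was 0.13 with it and 0.07 without. What the share of detected probes stands for in these arrays was not tested.

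The rest of the pathway was counted from a list of 88 further genes of glucose transport, glycogen, pyruvate handling, the citrate cycle, the pentose phosphate branch and their regulators, chosen with earlier results known. Of these 69 had a named probe and 55 were tested. In each genotype and GH comparison 0 of 55 were called, beside 0% of probes. The smallest p-value in dw/dw saline against HZ rats belonged at both times to Mpc1, a subunit of the carrier that brings pyruvate into mitochondria. Its difference was -0.27 at 7 days (SE 0.11, limma adjusted p = 0.68), -0.29 at 30 days (SE 0.11, adjusted p = 0.63) and -0.28 over both ages (SE 0.075, unadjusted p = 0.0013, adjusted p = 0.20). In GH-treated dw/dw against HZ rats at 30 days it was -0.31 (SE 0.11, adjusted p = 0.89). After 7 days of GH the smallest p-value was that of Pygm, muscle glycogen phosphorylase, at 0.24 (SE 0.076, adjusted p = 1.00), and after 30 days that of Pdk3, a kinase that inactivates pyruvate dehydrogenase, at 0.16 (SE 0.057, adjusted p = 1.00). The smallest p-value in GH-treated dw/dw against HZ rats at 7 days was that of Hif1a, the oxygen-regulated subunit of hypoxia-inducible factor, at -0.25 (SE 0.067, unadjusted p = 0.0015, limma adjusted p = 0.79), and Hif1a also had it for the difference between the genotype effects at 30 and 7 days, at 0.27 (SE 0.095, adjusted p = 0.995). For GH over both ages it was Pygm again, at 0.17 (SE 0.054, adjusted p = 1.00), and for the difference between the GH effects Acly, which makes cytosolic acetyl-CoA from citrate, at -0.26 (SE 0.082, adjusted p = 0.87). Between the ages 9 of 55 (16.4%) were called, against 15.7% of all probes, with Pygb, Sdhd, Sdha, Mpc1, Pc and Adpgk higher and Slc25a1, Pgls and Slc16a3 lower at 65 days. The smallest p-value there was that of Pgls, 6-phosphogluconolactonase of the NADPH-making pentose phosphate branch, at -0.21 (SE 0.033, limma adjusted p = 0.00029).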

How the data were processed

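Each of 24 rats gave 1 Illumina rat array of hippocampal RNA. Trizol extraction, a DNase step, biotin labelling of the cRNA and a Cy3-streptavidin stain are given in the labels' protocols, and the submitters' processing notes name GenomeStudio 2010.2. The deposited scanner table holds, per the file headers, an average signal intensity for 22226 probes and the detection p-value of each, with no normalization visible. The authors' second deposited table holds processed intensities of the same arrays. Their scale is linear, genes are not centred, and all arrays of a slide share the same maximum (14650 on slide 1 and 12630 on slide 2), while the method is not given in the sources used here. It served as an alternative only, with values under 1 set to 1.

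Scanner signals were corrected with normexp using detection p-values, with an offset of 16, quantile normalized and put on a log2 scale (neqc, limma 3.58.1, R 4.3.3), and jsonlite 2.0.0 read the labels. The offset draws differences of dim probes towards 0. Probes with a detection p-value under 0.05 on at least 4 arrays were tested, 11487 in all (51.7%). Of all probes 13192 were named by the platform annotation, 9034 were unnamed here, and 13151 of the named ones were matched by gene ID to RefSeq's table of assembly GRCr8. For a gene with several tested probes the brightest stood for it. The 6 group means were fitted to all arrays with lmFit and eBayes (18 residual and 1.55 prior degrees of freedom), and 11 comparisons were made at an adjusted p under 0.05, two-sided. The number of arrays limits the precision. Nothing in the labels says whether animals came from separate litters.

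In each comparison the 3 tested members with the smallest p are named with full values, the rate-setting enzymes and isozyme pairs as a description, and of the other pathway genes the one with the smallest p. The members, the lists and the tests were chosen with earlier results of these data known. Same-numbered animals deviated together in all 4 pairs (correlations 0.15 to 0.36) in GH-treated against HZ rats at 7 days. In the same comparison at 30 days all 4 correlations were positive too, from 0.087 to 0.49. Their means were 0.26 at both times, against -0.09 and -0.08 for animals of other numbers. In each of the other comparisons at least 1 pair was negative. At 30 days their highest correlations were 0.42 for dw/dw saline against HZ and 0.46 for GH against saline, with means of 0.07 and 0.09. For GH against saline at 7 days 3 of 4 pairs exceeded 0.1, and for dw/dw saline against HZ at 7 days the mean was -0.14. In the enzymes, replicate 1 of every 30-day group shared the pattern given above. What same-numbered animals share was not tested. The labels name nothing that a replicate number stands for, and the numbers were not taken as pairing. Alternatives were the scaling, the offset, the filter, the replicate block, the position on the slide, array weights, the moderation, each array left out, and, chosen after the data were seen, the share of detected probes as a covariate.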

Additional observations from a re-analysis of the deposited data

Results flagged for a closer look

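Among 168 sets of 4 animals (28 genes in 6 groups), 9 held an animal whose gap to the nearest other animal exceeded the 95% critical value of Dixon's test (5.36%), and chance alone flags about 1 set in 20. In the dw/dw GH group at 30 days, replicate 1 stood apart in Ldha, at 10.35 with the others at 10.72 to 10.74, and in Pdhb, at 10.79 with the others at 10.40 to 10.45. Its array had the highest share of detected probes, 51.2%. Replicate 3 of the same group stood apart in Dlat, at 8.15 with the others at 8.08 to 8.09. In the dw/dw GH group at 7 days, replicate 1 stood apart in Pfkl, at 7.58 with the others at 7.51 to 7.52, and replicate 4 in Mdh2, at 11.30 with the others at 11.23 to 11.24. In dw/dw saline rats, Eno1 of replicate 2 at 7 days read 6.47 with the others at 6.40, and Mdh1 of replicate 3 at 30 days read 12.09 with the others at 12.19 to 12.20. In HZ rats, Idh3a of replicate 4 at 7 days read 6.15 with the others at 6.19, and Idh3b of replicate 4 at 30 days read 9.82 with the others at 9.56 to 9.60. No explanation of these values was tested.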

How the results depend on the processing

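Over the 10 genotype and GH comparisons, 0 members were called under any alternative or with any array left out, and 5582 of 6104 combinations of member, comparison and setting kept the sign. With the position on the slide as a covariate, which nearly coincides with the groups, Idh3b in dw/dw saline against HZ at 7 days was 0.18, Ldhb and Cs over both ages were 0.031 and -0.021, and Idh3g with GH over both ages was -0.0086. In the authors' values Idh3a with GH at 7 days was 0.33, against 0.035. Calls over all probes, 0 in these comparisons, were 1 for dw/dw saline against HZ at 30 days in the authors' values and with array weights. Over both ages the genotype comparison called 12 with detection on at least 12 arrays, 17 with array weights, 13 with trended and robust moderation and 19 with the share of detected probes as a covariate, which called 1 with GH at either time and 2 for the difference between the GH effects. With 1 array left out the ranges were 0 to 1 in the 3 comparisons at 7 days (without dw/dw saline replicate 4 or HZ replicate 2, dw/dw saline replicate 4, and dw/dw GH replicate 4 or HZ replicate 1 for dw/dw saline against HZ, GH against saline and GH against HZ in turn), 0 to 5 for dw/dw saline against HZ at 30 days and 0 to 43 over both ages (5 and 43 without dw/dw saline replicate 1 at 30 days), and 0 to 2 for GH over both ages (2 without dw/dw saline replicate 3 at 30 days). Between the ages, calls over all probes were 1808, with 351 under median scaling and 5224 in the authors' values, and members called were 6, with 1 under median scaling, 18 in the authors' values, 3 without a filter and 3 to 7 with 1 array left out. The count of 3 came without replicate 1 or 2 of dw/dw saline or replicate 1 of dw/dw GH at 7 days, or without replicate 4 of dw/dw GH or replicate 1 or 2 of HZ at 30 days. Suclg1 was -0.094 in the authors' values, a call in the opposite direction (limma adjusted p = 0.0056). With the replicate block 7 members were called between the ages, Pfkl no longer (adjusted p = 0.063), and 0 in the other comparisons. The causes were not tested. The 95% intervals of some members reached past 1.23-fold within a time point (Pfkl to 0.34 and 0.35 on the log2 scale in GH-treated against saline and HZ rats at 7 days, and 2 to 4 of 28 members in each comparison at 30 days), so differences of that size lie within the intervals there with 4 animals a group.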
